A study of Mus musculus with 5 samples.

Results

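Ym1+Ly6Chi monocytes sorted from the bone marrow (BM) after LPS were set against naïve monocytes from the BM. The pair makes up 2 of the 5 RNA-seq libraries of sorted BM cells in the series, each of 1 condition. Mice for both libraries were C57BL/6, 7 weeks old and of the genotype +/Ym1Venus, a reporter that makes Ym1-expressing cells fluoresce with Venus. Ly6C+ CD115+ Venus+ cells were sorted 48 h after an intravenous dose of 100 µg LPS per mouse, and the naïve monocytes were Ly6C+ CD115+ Venus- cells from mice with no treatment. LPS and the Venus gate therefore changed together, and their parts in a difference cannot be told apart. A library of Ly6C+ CD115+ Venus- cells from mice given LPS (Ym1-Ly6Chi monocytes) shares the gate with the naïve library and the treatment with the Ym1+ library, and its values are given beside the others, as are those of Ly6G+ neutrophils, sorted from untreated mice and from mice 48 h after LPS. How many mice went into a library the sources used here do not give, and with 1 library per condition there is no replicate, no SD and no test, and every difference describes this pair of libraries only.

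The values are FPKM, fragment counts scaled by transcript length and by library size, and a difference is that of log2(FPKM + 1), Ym1+Ly6Chi monocytes minus naïve monocytes. Among 23234 gene symbols, 10698 reached an FPKM of 1 in at least 1 of the libraries. From these, 43 genes of the short Mir, Snor and Scarna families and 26 genes listed at 0 in 1 of the libraries were left out, which left 10629 genes compared. A gene was counted as higher or lower when the difference was at least 2-fold, and is called level otherwise. The genes named were chosen by rank and by gene lists drawn up with earlier results of these data known, and further list members were named after their values had been seen.

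Ly6Chi monocytes are the classical monocytes of the mouse, which leave the BM by way of the chemokine receptor Ccr2 and enter inflamed tissue. They arise from progenitors that they share with neutrophils, and both lineages read LPS through Tlr4 and its partners Cd14 and Ly96. Ym1, encoded by Chi3l3, is a secreted chitinase-like lectin that neutrophils and alternatively activated macrophages of the mouse make in large amounts. Serum amyloid A and Lrg1 belong to the acute-phase proteins, which liver and myeloid cells make in response to IL-6, IL-1 and the factors STAT3 and C/EBP.

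Chi3l3, the gene whose reporter set the gate, had an FPKM of 1759 in Ym1+Ly6Chi monocytes, 430.0 in naïve monocytes and 386 in Ym1-Ly6Chi monocytes. The Venus- libraries thus held Chi3l3 RNA at similar levels with and without LPS, well above 0 and far below the Venus+ library, which checks the gate and is not a finding. Its near-identical neighbour Chi3l4, between which and Chi3l3 the counting could split fragments, was at 238, 60.1 and 49.9, while the related Chi3l1 was level at 3.66 against 1.74 in Ym1+Ly6Chi and naïve monocytes. Saa3, a serum amyloid A made outside the liver, had an FPKM of 278 in Ym1+Ly6Chi monocytes, 0.93 in naïve monocytes and 133 in Ym1-Ly6Chi monocytes. Lrg1, a secreted leucine-rich glycoprotein, had an FPKM of 75.1, 1.06 and 15.1 in the same order. Both were near 1 in naïve monocytes and high in both monocyte libraries after LPS, with the Ym1+ library above the Ym1- library. The differences were 2.03 for Chi3l3, 7.17 for Saa3, which was the largest among genes that reached an FPKM of 10, and 5.21 for Lrg1. As ratios of FPKM, Chi3l3 was 4.09-fold (95% counting interval 3.96 to 4.23), Saa3 299-fold (95% counting interval 170.0 to 547) and Lrg1 70.9-fold (95% counting interval 38.2 to 159.6) above naïve monocytes. The intervals cover counting error only, for reads without molecular identifiers. They rest on an estimated depth and on the longest annotated transcript of each gene, 2200 bases for Saa3. With a shorter transcript they would be wider. The split of fragments between Chi3l3 and Chi3l4 is not in them.

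The promoters of these 3 markers are shown as the 250 bases before the RefSeq start site in the assembly GRCm38.p6, all on the minus strand, 5′ to 3′. The 3 RNAs did not move alike in every library. Between Ym1-Ly6Chi and naïve monocytes the difference was -0.16 for Chi3l3, 6.12 for Saa3 and 2.96 for Lrg1. Capitals mark every match, on either strand, to the letters TTCNNNGAA (STAT), TTGCNNAA (C/EBP), GGGNNTTCC (NF-kB), GAAANNGAA (interferon-stimulated response element, ISRE) and CCAAT.
Chi3l3 (RefSeq Chil3), chr3:106167565-106167814: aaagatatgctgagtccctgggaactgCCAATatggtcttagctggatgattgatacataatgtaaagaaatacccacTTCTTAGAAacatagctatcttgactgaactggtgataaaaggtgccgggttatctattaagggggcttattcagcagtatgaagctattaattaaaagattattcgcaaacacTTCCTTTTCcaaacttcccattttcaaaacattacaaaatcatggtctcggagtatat
Saa3, chr7:46715677-46715926: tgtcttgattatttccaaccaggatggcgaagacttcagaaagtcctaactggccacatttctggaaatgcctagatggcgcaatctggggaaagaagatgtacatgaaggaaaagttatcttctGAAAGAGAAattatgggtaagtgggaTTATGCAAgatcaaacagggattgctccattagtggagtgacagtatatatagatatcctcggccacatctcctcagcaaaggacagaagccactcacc
Lrg1, chr17:56121947-56122196: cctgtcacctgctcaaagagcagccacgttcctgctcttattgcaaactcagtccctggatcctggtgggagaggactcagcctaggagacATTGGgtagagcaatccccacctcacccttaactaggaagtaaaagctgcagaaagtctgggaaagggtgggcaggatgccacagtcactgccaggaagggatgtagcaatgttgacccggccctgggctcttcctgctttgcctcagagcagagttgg
The Chi3l3 window held the STAT letters, CCAAT and, on the opposite strand, the ISRE letters, once each. The Saa3 window held the ISRE letters and, on the opposite strand, the C/EBP letters, and the Lrg1 window held CCAAT on the opposite strand. No match overlapped another in these windows, and a match is a stretch of letters and not a bound site. Across the genes compared, 8556 had a RefSeq promoter under the same name or through a RefSeq synonym. The C/EBP letters were found in 7.57% of them, against 14.1% of 199 promoters of the genes at least 2-fold higher in Ym1+Ly6Chi monocytes and 7.02% of 356 promoters of the genes at least 2-fold lower. The STAT letters were found in 6.19% of all, 11.1% of the higher and 5.34% of the lower genes, and the ISRE letters in 6.70%, 12.1% and 10.1%. The NF-kB letters were found in 6.45%, 4.52% and 5.90%, and CCAAT in 38.3%, 40.7% and 33.7%. Over all 27025 promoters of the RefSeq table, whether or not the gene was expressed, the shares were 9.55% for C/EBP, 7.18% for STAT, 7.16% for ISRE, 4.88% for NF-kB and 34.5% for CCAAT. The higher genes thus held the C/EBP, STAT and ISRE letters more often than the genes compared, as shares of letters with no test, and with copies of 1 family, such as the stefins, among them. The ISRE letters were also more frequent in the lower genes. Among genes at least 4-fold apart they were in 12.5% of the higher and 14.3% of the lower genes.

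In all, 251 of the 10629 genes (2.36%) were at least 2-fold higher in Ym1+Ly6Chi monocytes than in naïve monocytes and 452 (4.25%) at least 2-fold lower. The counts of higher and lower genes in each list below are to be read against these shares. At least 4-fold higher were 62 genes and at least 4-fold lower 60, and at least 8-fold apart were 29 and 16. The middle of the distribution stayed close to 0, with a median difference of -0.06 over all genes and 73.3% of genes within 0.5 of no difference. Of the higher genes, 148 reached an FPKM of 10 in Ym1+Ly6Chi monocytes, and of the lower genes 195 did so in naïve monocytes, so that much of the count lies among weakly expressed genes. For comparison, 276 genes (2.6%) were higher and 465 (4.37%) lower in Ym1-Ly6Chi than in naïve monocytes, a comparison that shares the naïve library. Between the 2 gates after LPS, 120 genes (1.15%) were higher and 100 (0.959%) lower in Ym1+Ly6Chi monocytes.

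**Figure D1:**
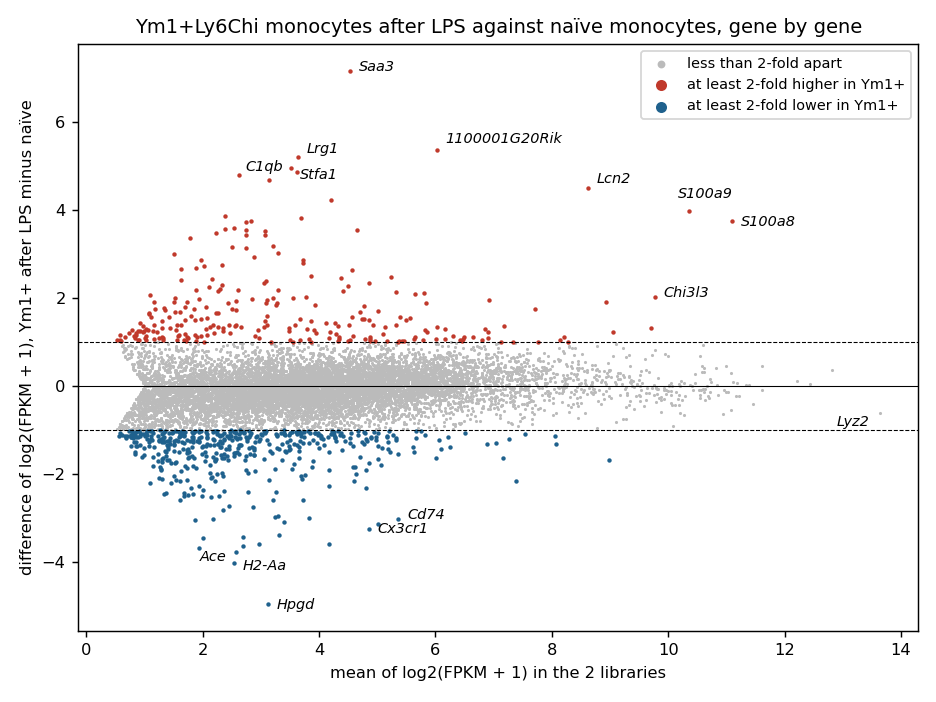
Difference of log2(FPKM + 1), Ym1+Ly6Chi monocytes after LPS minus naïve monocytes, plotted against the mean of log2(FPKM + 1) in the 2 libraries for the 10629 genes compared, 1 point per gene. Dashed lines mark 2-fold, red points are the 251 genes at least 2-fold higher, blue points the 452 at least 2-fold lower, and Saa3 at 7.17 and Hpgd at -4.96 are the extremes among genes that reached an FPKM of 10.

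The steps between low FPKM values of genes with 1 annotated transcript put 1 fragment of a 1 kb transcript at an FPKM of about 0.102 for Ym1+Ly6Chi and 0.161 for naïve monocytes, so that the naïve library had 63.1% of the depth of the Ym1+ library. With these steps, an FPKM of 10 for a 2 kb transcript stands for about 196 fragments in the Ym1+ library and 124 in the naïve library, and its 95% Poisson interval is 8.65 to 11.5 and 8.32 to 11.9. For 3 fragments, such a transcript has an FPKM of 0.153 and 0.242. The Ym1- library had 45.0% of the depth of the Ym1+ library, and there 3 fragments stand for an FPKM of 0.34. Values near 0 in the Ym1- library therefore rest on few fragments. Of the higher genes with a known transcript length, 244 of 247 had a ratio whose counting interval lay above 1, and of the lower genes 444 of 446 had one below 1. Past 2-fold lay the intervals of 182 higher and 331 lower genes, and of the genes less than 2-fold apart 5573 of 9794 also had an interval off 1. Some genes that every cell uses are listed at or near 0. Actr3, an actin regulator, stood at 0 for Ym1+Ly6Chi and at 593 for naïve monocytes, Nono at 0 and 204, and Rpl26, a ribosomal protein gene with many copies in the genome, at 7.05 and 0.00314. The cause was not tested, and all values at or near 0 are given as listed.

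Both libraries carried the markers of Ly6Chi monocytes. The 6 monocyte markers (Ccr2, Csf1r, Ly6c1, Ly6c2, Cd14 and F13a1) were less than 2-fold apart, with a summed FPKM of 4943 in Ym1+Ly6Chi and 5496 in naïve monocytes. Ly6c2, which encodes the Ly6C antigen together with its near-identical neighbour Ly6c1, had an FPKM of 3029 and 3245, and Ccr2 of 439 and 499. Csf1r, which encodes the CD115 of the gate, was at 138 and 230.1. Markers of lymphoid, erythroid and platelet cells were low in both, with summed FPKM from 4.41 to 17.5 in Ym1+Ly6Chi and from 11.8 to 20.1 in naïve monocytes, and Cd3e, Ms4a1 and Ncr1 were listed at 0 in both. Those of eosinophils, basophils and mast cells summed to 1.24 and 3.27. In sorted pools such as these, fewer cells of a type and less RNA per cell cannot be told apart. The lymphoid and platelet sums were lower in Ym1+Ly6Chi monocytes, with Cd79b at 5.09 against 15.3, Nkg7 at 6.74 against 18.5 and Ppbp at 0.436 against 6.94.

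Most of the largest increases belonged to 3 families, namely acute-phase proteins, calprotectin with the stefin A cluster, and complement C1q. Ranked by the difference, the 15 were Saa3, 1100001G20Rik, Lrg1, Stfa1, BC100530, C1qb, Gm5483, Lcn2, Stfa2l1, S100a9, C1qc, Stfa2, Cd38, S100a8 and F11r, with differences from 7.17 down to 3.73. 1100001G20Rik (now Wfdc21), a WAP domain protein, had an FPKM of 417 in Ym1+Ly6Chi, 9.09 in naïve and 133 in Ym1-Ly6Chi monocytes. Outside these families stood Cd38, an ectoenzyme that consumes NAD, at 25.1 against 0.944, and F11r, the junctional adhesion molecule A, at 23.4 against 0.842. For Cd38 and F11r the Ym1- library, at 16.9 and 13.3, was closer to the Ym1+ library than to the naïve library.

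**Figure D2:**
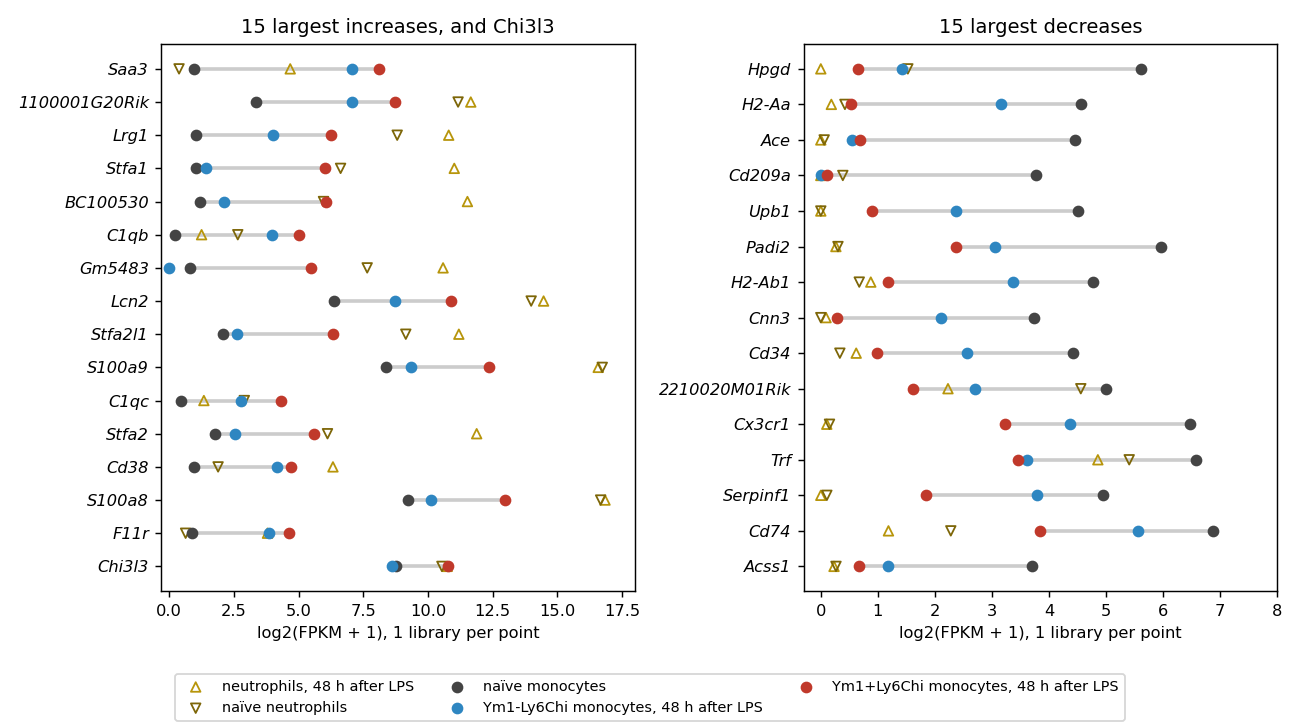
FPKM on the log2(FPKM + 1) scale, 1 library per point, of the 15 genes with the largest increase and Chi3l3 (left) and the 15 with the largest decrease (right) among genes that reached an FPKM of 10. Grey bars join naïve and Ym1+Ly6Chi monocytes, so that Saa3 runs from 0.93 to 278 and Hpgd from 47.7 to 0.567 FPKM, and triangles show neutrophils. After LPS the neutrophils were below Ym1+Ly6Chi monocytes for Saa3 and the C1q genes and above them for the stefin genes.

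Acute-phase and IL-6/STAT3 genes held several of the largest increases. Of 15 genes compared, 7 were at least 2-fold higher and 0 lower, with a median of 0.94 against -0.06 over all genes. Lcn2, which binds bacterial siderophores, had an FPKM of 1869.6 in Ym1+Ly6Chi and 81.1 in naïve monocytes, a ratio of 23.1-fold (95% counting interval 21 to 25.4), and was at 420.4 in Ym1-Ly6Chi monocytes. Socs3, the feedback inhibitor of STAT3, was at 16.1 against 0.905, and the STAT target Pim1, a kinase, at 109 against 28.6. In Ym1-Ly6Chi monocytes both were at nearly the same level as in the Ym1+ library, at 13.5 and 111. Haptoglobin (Hp), which binds free haemoglobin, was at 1324 against 528, and the copper-carrying ferroxidase ceruloplasmin (Cp) at 1.73 against 0.21. The factors themselves differed little, with a difference of 0.44 for Stat3, 0.23 for Cebpb and 0.00 for Cebpd, and the receptor subunit gene Il6ra was at 62.9 against 114, a difference of -0.85. Il6 was listed at 0 in both libraries.

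Calprotectin, the stefins and other genes typical of neutrophils gave the highest list median. Of 16 genes compared, 11 were higher and 0 lower, with a median of 3.51. Stefin genes were counted singly in this list, and the median lay between the differences of Stfa3, at 3.53, and BC117090, at 3.48. The count and the median therefore lean on that gene cluster. S100a8 and S100a9, the subunits of the calcium and zinc binding protein calprotectin, had an FPKM of 7993 and 5205 in Ym1+Ly6Chi and of 595 and 331 in naïve monocytes. Together they took 2.39% of all FPKM in the Ym1+ library, 0.172% in the naïve library and 0.309% in the Ym1- library. The stefin A genes inhibit cysteine proteases and lie in a cluster of near-identical copies, between which the counting could split fragments, so the members are given as a group. Stfa1, Stfa2, Stfa2l1, Stfa3, BC100530, BC117090 and Gm5483 lay between 14.8 and 79.3 FPKM in Ym1+Ly6Chi and between 0.415 and 3.26 in naïve monocytes. In Ym1-Ly6Chi monocytes the same genes stayed between 0 and 5.08, so that the stefins, unlike Saa3, stood apart mainly between the gates. Il1f9, a member of the IL-1 family, was at 26.9 against 2.04, and the neutrophil gene Retnlg was level at 13.7 against 13.9.

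Genes of the specific granules, which neutrophil precursors fill at the myelocyte stage, were higher for most of the best known members. Of 13 genes compared, 7 were higher and 1 lower, with a median of 1.30. Lactoferrin (Ltf) had an FPKM of 103 in Ym1+Ly6Chi and 23.2 in naïve monocytes, the antibacterial proteins Ngp and Camp were at 387 against 113 and 103 against 39.6, and the collagenase Mmp8 at 179 against 72.3. In Ym1-Ly6Chi monocytes Ltf, Ngp and Camp were at 9.01, 46.2 and 13.5, so that for these 3 genes the naïve library lay between the gates. Cd177, a surface protein of neutrophils, went the other way at 35.5 against 113, and was lower still in Ym1-Ly6Chi monocytes at 6.56. Among gelatinase granule genes 1 of 7 was higher, the membrane protease Mmp25 at 19.4 against 1.68, while gelatinase B (Mmp9) was at 11.8 against 7.41, a difference of 0.61.

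The list of azurophil granule genes, which are switched on earlier, split. Myeloperoxidase (Mpo) was lower at 282 against 910.3 and neutrophil elastase (Elane) stood at 312 against 609, a difference of -0.96, whereas proteinase 3 (Prtn3) was level at 675 against 628. Of 10 genes compared, 4 were higher, namely Ctsc, Serpinb1a, Calr and Ms4a3. The list holds more than granule contents, since Calr is also counted among the protein folding genes below. Ctsc, which activates the granule serine proteases, was at 941 against 251, and Serpinb1a, which inhibits them, at 87.2 against 35.6. The list median was 0.35, and 0.48 in Ym1-Ly6Chi against naïve monocytes.

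Receptors known from neutrophils were higher for 8 of 11 genes compared and lower for 0, with a median of 2.03. The decoy receptor Il1r2, which captures IL-1, had an FPKM of 19.1 in Ym1+Ly6Chi and 0.667 in naïve monocytes. The formyl peptide receptors Fpr1 and Fpr2, which guide cells to bacteria, were at 27 against 2.45 and 82.9 against 18.2, and the complement receptor C5ar1 at 26.7 against 5.81. Trem1, which amplifies inflammatory signals, was at 9.64 against 1.3. Clec4e (Mincle), a receptor for mycobacterial glycolipid, was at 34 against 5.12 and at 24.6 in Ym1-Ly6Chi monocytes. Csf3r, the G-CSF receptor, did not follow them, at 43.5 against 66.1.

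Neutrophils held most of these RNAs at far higher levels. For the check of their markers, Ly6g, the antigen gene of neutrophils, is not among the symbols used. The 5 neutrophil markers found (Retnlg, Ltf, Camp, Ngp and Cxcr2) summed to an FPKM of 619 in Ym1+Ly6Chi, 194 in naïve and 84.1 in Ym1-Ly6Chi monocytes, against 63071 in neutrophils after LPS, and 4 of the 5 were at least 2-fold higher in Ym1+Ly6Chi than in naïve monocytes. The gain from naïve to Ym1+Ly6Chi monocytes, as a percent of the level in neutrophils after LPS, was 6.31% for S100a8, 7.91% for Lcn2, 3.02% for Stfa1, 0.721% for Ltf, 0.628% for Camp and 0.201% for Mmp9. Retnlg, at 5157 in those neutrophils, did not gain. For Saa3, C1qb and Chi3l3 the gain was 1127%, 2292% and 77.6% of the neutrophil level. The gains were thus unequal shares of the neutrophil levels, and for Saa3 and C1qb larger than those levels. The part that neutrophil RNA has in these differences was not tested.

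Complement genes differed by component. The genes of C1q, the recognition subunit of the classical pathway, were at 17.2, 31.7 and 19 FPKM for C1qa, C1qb and C1qc in Ym1+Ly6Chi monocytes and at 0.52, 0.177 and 0.358 in naïve monocytes. The naïve values rest on about 3, 1 and 3 fragments, so the ratio for C1qb of 179 has a counting interval of 38.1 to 8472. In Ym1-Ly6Chi monocytes the 3 genes were at 4.62, 14.7 and 5.78, between the other monocyte libraries. Factor B (Cfb), of the alternative pathway, was at 33.9 against 4.01, whereas C3 and properdin (Cfp) were level, at 362 against 384 and 175 against 180.2. In all, 5 of 11 complement genes compared were higher and 1 lower, with a median of 0.36 that was 0.65 with TPM, 0.75 with a pseudocount of 0.1 and 2.03 with an FPKM of at least 5.

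C1q is also a mark of tissue macrophages, for which a list without C1q was counted. Of 14 genes compared, 5 were higher and 1, Trf, lower, with a median of 0.30. Spic, the factor of red pulp and BM macrophages, was at 4.77 against 0.43, Vcam1 at 3.2 against 0.238, the iron exporter gene Slc40a1 at 2.4 against 0.431 and Cd5l at 1.35 against 0.083, all at low levels. Marco, a scavenger receptor, was at 10.2 in Ym1+Ly6Chi and listed at 0 in naïve monocytes. Heme oxygenase (Hmox1) was at 111 against 44.4. The pan-macrophage genes Emr1 (F4/80) and Cd68 were level, at 44.8 against 45.4 and 278 against 302. Mertk was below 1 in both, and the scavenger receptor gene Cd163 stood at 0.552 against 2.04, a difference of -0.97. The summed FPKM of the 7 macrophage markers Emr1, Mertk, Vcam1, Cd163, C1qa, C1qb and C1qc was 117 in Ym1+Ly6Chi, 49.1 in naïve and 60.2 in Ym1-Ly6Chi monocytes, and its part in the result was not tested. The 3 C1q genes gave 67.9 and 1.05 of the first 2 sums, and the other 4 markers 49.5 and 48.1, so that nearly all of the difference between the sums lay in C1q. Emr1 gave most of the sum of the other 4, which therefore says little of the weaker markers. Of the 6 markers compared 4 were higher, the C1q genes and Vcam1.

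Genes of monocyte identity were mostly level. Of 18 compared, 2 were higher, 1 lower and 15 less than 2-fold apart, a share below that of all genes, with a median of -0.21. Versican (Vcan), a matrix proteoglycan, stood out at 85.6 in Ym1+Ly6Chi, 6.39 in naïve and 45.7 in Ym1-Ly6Chi monocytes, and the high-affinity IgG receptor gene Fcgr1 was at 48.5, 17.9 and 49.8. Lysozyme (Lyz2), the most abundant of the list, was at 10349 against 15831, a difference of -0.61, and PU.1 (Sfpi1) was at 298 against 293. Irf8, which directs progenitors to monocytes rather than to granulocytes, was lower at 127 against 271.

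Genes of the Ly6Clow monocyte, the patrolling cell into which Ly6Chi monocytes mature, were lower or level and none was higher. Of 12 compared, 3 were at least 2-fold lower, with a median of -0.70. Cx3cr1, the fractalkine receptor, had an FPKM of 8.38 in Ym1+Ly6Chi, 88 in naïve and 19.8 in Ym1-Ly6Chi monocytes. Ace, angiotensin converting enzyme, was at 0.609, 21 and 0.455, and Nr4a1, the factor that Ly6Clow monocytes need, at 11.7, 29 and 9.03. S1pr5, a sphingosine receptor outside that list which the same cells use to leave the BM, was at 0.917 against 12.6. The Ym1- library was as low as the Ym1+ library for Ace and Nr4a1, and between the others for Cx3cr1.

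MHC class II genes were lower almost throughout. Of 9 compared, 7 were lower and 0 higher, with a median of -1.27, which was -2.70 with a pseudocount of 0.1 and -2.14 with an FPKM of at least 5. H2-Aa and H2-Ab1, the chains of I-A, had an FPKM of 0.441 and 1.25 in Ym1+Ly6Chi, 22.5 and 26.2 in naïve, and 7.91 and 9.29 in Ym1-Ly6Chi monocytes. The invariant chain Cd74 was at 13.4, 117 and 45.9. H2-DMa, which helps peptide loading, was at 101 against 234, and Ciita, the master activator of these genes, at 0.0781 against 1.06, a difference of -0.93. For H2-Aa, H2-Ab1 and Cd74 the Ym1- library lay between the Ym1+ and the naïve library. Of 18 MHC class I and antigen processing genes, 0 were past 2-fold in either direction, where 93.4% of all genes were not past it either, and B2m, their shared light chain, was at 2619 against 2556.

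Dendritic cell genes were lower in the same way. Of 8 compared, 6 were lower and 0 higher, with a median of -1.50, which was -2.57 with a pseudocount of 0.1 and -0.86 without a filter on low values. The lectin Cd209a was at 0.0746 in Ym1+Ly6Chi, 12.7 in naïve and 0 in Ym1-Ly6Chi monocytes, Irf4 at 0.661, 8.45 and 1.15, and the cytokine receptor Flt3 at 0.111, 5.02 and 1.92. The lineage genes Zbtb46, Xcr1 and Siglech were below 1 in both libraries compared. The 5 dendritic cell markers summed to 0.746 in Ym1+Ly6Chi and 18.5 in naïve monocytes, nearly all of it Cd209a and Flt3, and their part in the MHC class II difference was not tested.

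**Figure D3:**
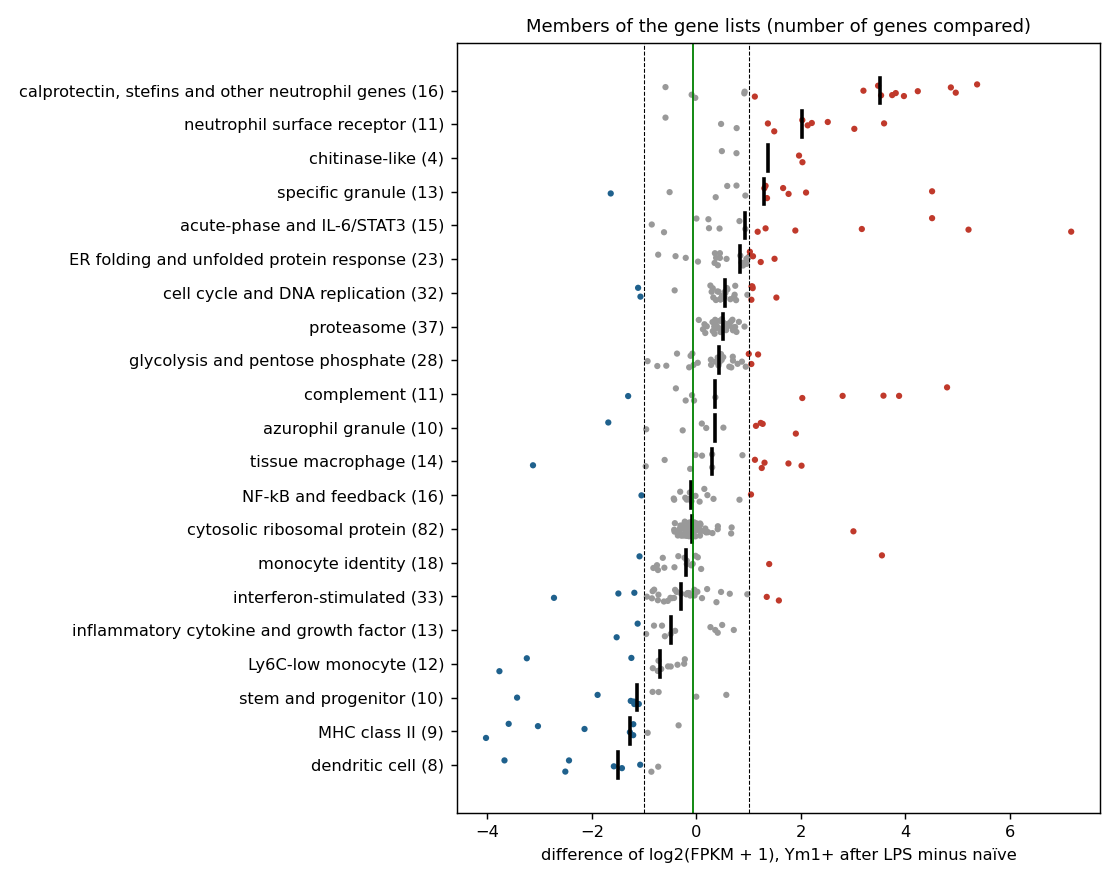
Difference of log2(FPKM + 1), Ym1+Ly6Chi monocytes after LPS minus naïve monocytes, for every compared member of the gene lists named at the left, 1 point per gene. Black bars are list medians, from 3.51 for calprotectin and stefins to -1.50 for dendritic cell genes, the green line is the median of all genes at -0.06, and dashed lines mark 2-fold.

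Genes of stem cells and progenitors were lower for 6 of 10 compared and higher for 0, with a median of -1.15. Cd34, a sialomucin of progenitors, was at 0.972 in Ym1+Ly6Chi, 20.3 in naïve and 4.92 in Ym1-Ly6Chi monocytes. Kit, the stem cell factor receptor, was at 0.269 against 3.71, and the factors Myb and Myc at 9.81 against 22.2 and 7.22 against 18.6. Ly6a (Sca-1), which interferon and inflammation raise on many cells, stood at 43.4 against 28.9, a difference of 0.57. Among 25 myeloid transcription factors 1 was higher, Gfi1b at 1.63 against 0.2, and 4 lower, the latter being Irf4, Cebpa, Nr4a1 and Irf8. Cebpa, which granulocyte and monocyte progenitors need, was at 17.2 against 56.6, and Cebpe, of later granulocyte stages, at 17.9 against 10.3, a difference of 0.74.

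The remaining decreases among the largest 15 were enzymes, secreted proteins and others. Hpgd, which inactivates prostaglandins, had the largest decrease, from 47.7 in naïve to 0.567 in Ym1+Ly6Chi monocytes, a naïve level 84.1-fold (95% counting interval 45.7 to 193) higher, and was at 1.69 in Ym1-Ly6Chi monocytes. Padi2, a protein citrullinating enzyme, was at 4.18 against 61.6, Upb1, of pyrimidine breakdown, at 0.853 against 21.9, and Acss1, which makes acetyl-CoA in mitochondria, at 0.591 against 12. The actin-binding Cnn3 was at 0.212 against 12.3, the secreted Serpinf1 at 2.59 against 29.7 and 2210020M01Rik at 2.07 against 31. Transferrin (Trf), the iron carrier, was at 9.91 against 94.4. All 8 were also below naïve in Ym1-Ly6Chi monocytes, by differences from -4.18 for Hpgd to -1.16 for Serpinf1.

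Of 23 genes compared on the list of Toll-like receptors and LPS sensing, 2 were higher, 0 lower and 21 less than 2-fold apart. That share is close to the 93.4% over all genes, and the list median was -0.04. The adaptor Myd88 was at 131 in Ym1+Ly6Chi and 59.9 in naïve monocytes, Lbp, which carries LPS, at 60.7 against 29.3, and Tlr4 at 13.1 against 6.14, a difference of 0.98. Cd14 was level at 10.9 against 11.5, and Ly96 (MD-2), which binds LPS with Tlr4, stood at 13 against 23.7, a difference of -0.82. Among 16 genes of NF-kB and its feedback, 1 was higher, the inhibitor Nfkbia at 78.2 against 37.4, and 1 lower, Nfkbie at 3.06 against 7.41.

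Of 13 genes compared on the list of inflammatory cytokines and growth factors, which does not hold Il1f9, 0 were at least 2-fold higher and 2 lower, with a median of -0.49. Tnf was at 4.86 against 6.77 and Il1b at 1.02 against 0.677, and Il6, Il10 and Il12b were listed at 0 in both. Among chemokines Ccl5 was higher at 9.63 against 0.465, and Ccl6, which myeloid cells make constantly, lower at 170.3 against 423, while Ccl2 was at 2.7 against 1.52. Interferon-stimulated genes had a median of -0.29, with 2 of 33 higher, Oas1g and Oas1a at 40.1 against 12.8 and 55 against 21, and 3 lower, namely Ifit3 at 1.13 against 13.1, Rsad2 at 1.47 against 5.95 and Mx2 at 1.79 against 5.35. Immediate early genes, which handling can induce, were higher for 1, Ier3 at 7.86 against 2.4, and lower for 3 of 14, with Fosl2 at 19.7 against 47.7.

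In the IL-1 family 3 of 16 genes were higher, Il1r2, Il1f9 and Il18rap, and 0 lower. Il18rap, a subunit of the IL-18 receptor, was at 12.1 against 0.935, and the inflammasome genes Nlrp3 and Casp1 at 12.7 against 18.1 and 44.2 against 37.1. Receptors for growth factors and cytokines had a median of -0.45 against -0.06 over all genes. Of 23 compared, 1 was higher and 2 lower, where 2.36% and 4.25% of all genes were. The IL-4 receptor gene Il4ra was the higher one at 34.4 against 15.2, whereas the interferon gamma receptor gene Ifngr1 stood at 146 against 199.

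Chemokine and sphingosine receptors separated. Of 13 compared, 4 were at least 2-fold higher, among them Ccr1, Cmklr1 and Cxcr2, and 3 lower, namely Cx3cr1, S1pr5 and S1pr3. Ccr1, a receptor for inflammatory chemokines, was at 79.7 in Ym1+Ly6Chi, 26.5 in naïve and 53.4 in Ym1-Ly6Chi monocytes. Cxcr4, which holds cells in the BM, was at 182 against 229. Among integrins and adhesion molecules 1 of 22 was higher and 3 lower, the latter Itgb3, Cd93 and Itga4, with Itga4, a chain of the Vcam1 ligand, at 37.7 against 82.5. The other 18 were less than 2-fold apart, as were 93.4% of all genes.

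Matrix proteases and their inhibitors had a median of 0.15, with 4 of 14 higher, namely Mmp25, Thbs1, Adam8 and Mmp8, and 1 lower, Adam19. Thrombospondin 1 (Thbs1) was at 19.9 in Ym1+Ly6Chi, 3.61 in naïve and 7.06 in Ym1-Ly6Chi monocytes. The M2 macrophage list, which holds Chi3l3 itself, had 3 higher of 9 compared, Chi3l3, Stab1 and Il4ra, and 1 lower, the lectin Mgl2 at 2.36 against 9.06. Arg1 was listed at 0 in both, and Mrc1 was at 2.35 against 2.11. Among M1 genes 2 of 9 were higher, Socs3 and Fcgr1, and 1 lower, Cd40, which T cells engage, at 2.68 against 10.8. Neither list stood far from the median of all genes, with medians of 0.11 and 0.11 that turn negative with an FPKM of at least 5, at -0.73 and -0.34.

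C-type lectin receptors went both ways, 3 higher and 4 lower of 17. Clec4n (Dectin-2), a receptor for fungal mannans, was at 5.69 against 0.972, and Clec7a (Dectin-1), a receptor for fungal glucans, at 74 against 184. Fcgrt, the neonatal Fc receptor, was lower at 4.36 against 31.3 while the other Fc receptors but Fcgr1 were less than 2-fold apart. In lipid handling Apoe, apolipoprotein E, was at 77.9 in Ym1+Ly6Chi, 351 in naïve and 30.003 in Ym1-Ly6Chi monocytes, and 2 of 20 genes were higher, the sterol sensor Nr1h3 and the lipid droplet protein Plin2, at 2.63 against 0.666 and 158 against 76.4. Ptger4, a prostaglandin E receptor, was besides Hpgd the lower one of 14 prostaglandin and leukotriene genes, at 5.41 against 20.8.

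Genes of protein folding in the endoplasmic reticulum (ER) mostly stood above 0, by smaller amounts. Of 23 compared, 5 were at least 2-fold higher and 0 lower, 20 had a difference above 0, and the median was 0.84, against 0.92 in Ym1-Ly6Chi monocytes. The chaperone Hspa5 (BiP) was at 306 against 152, and calreticulin (Calr) at 812 against 345, whereas the stress factor Ddit3 (CHOP) stood at 3.72 against 6.84, a difference of -0.73. Proteasome subunits were all above 0, 37 of 37, with a median of 0.51 that was 0.60 with median-of-ratios scaling. Past 2-fold were 0 of them, where 93.4% of all genes were not past it either. The 13 housekeeping genes also stood above 0, with differences from 0.03 to 1.0 and a median of 0.20. Over all genes compared the median was -0.06, so that most stood below 0. Glycolysis and pentose phosphate genes had a median of 0.43, with 3 of 28 higher, among them the glucose carrier Slc2a1 at 28.3 against 11.9, and Gapdh, often used as a reference, was at 2155 against 1119, a difference of 0.94. Cathepsins C and L were the higher genes among 21 lysosomal genes, Ctsl at 50.5 against 13.7. Iron and heme genes were higher for 6 of 20, with ferritin heavy chain (Fth1) at 1259.7 against 764, a difference of 0.72.

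Cell cycle and DNA replication genes had a median of 0.54 against -0.06 over all genes, with 5 higher and 2 lower of 32 and 29 above 0. Cyclin E1 (Ccne1), of the entry into DNA replication, was at 45.8 against 15.2, and the mitotic genes Plk1 and Ccnb1 at 129 against 60.7 and 123 against 58.9. Mki67, a mark of dividing cells, was at 173 against 138, and the lower genes were the D cyclins Ccnd1 and Ccnd2, at 0.399 against 2.03 and 1.17 against 3.55. In Ym1-Ly6Chi monocytes the median was 0.50. Ribosomal and mitochondrial genes stood closer to 0, with medians of -0.08 for cytosolic ribosomal proteins, 0.23 for mitochondrial ribosomal proteins and 0.26 for oxidative phosphorylation. For the NADPH oxidase of phagocytes 0 of 8 genes were past 2-fold in either direction, a share near that of all genes, with its catalytic subunit Cybb at 271 against 379.

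**Figure D4:**
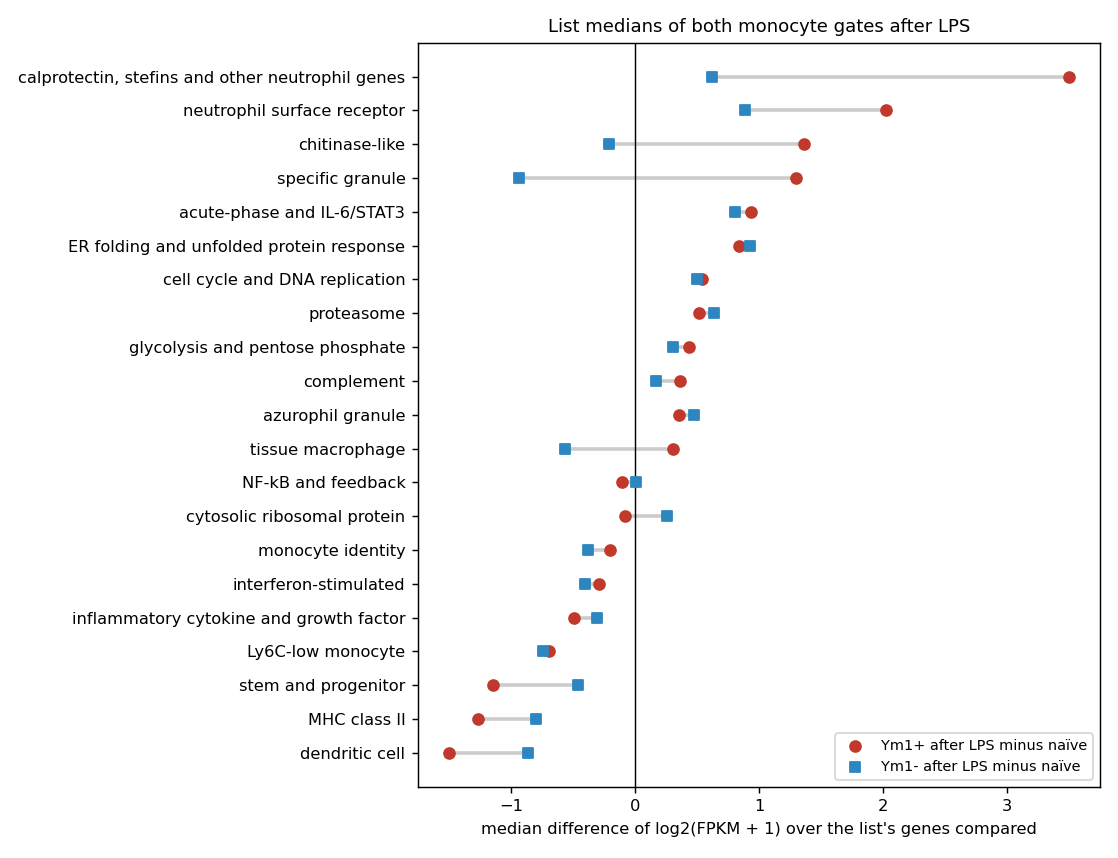
Median difference of log2(FPKM + 1) from naïve monocytes over the compared members of the gene lists named at the left, in Ym1+Ly6Chi monocytes (red circles) and Ym1-Ly6Chi monocytes (blue squares), both set against the same naïve library. Calprotectin and stefins are at 3.51 and 0.62, specific granule genes at 1.30 and -0.94 and MHC class II genes at -1.27 and -0.80, while ER folding genes are at 0.84 and 0.92.

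Set side by side with the same naïve library, the list medians of the gates were near each other for some lists and far apart for others. For ER folding, proteasome, cell cycle and Ly6Clow genes the medians were close, at 0.84 and 0.92, 0.51 and 0.64, 0.54 and 0.50, and -0.70 and -0.75 in Ym1+Ly6Chi and Ym1-Ly6Chi monocytes. For calprotectin and stefins they were 3.51 and 0.62, for neutrophil receptors 2.03 and 0.89, and for specific granules 1.30 and -0.94. The calprotectin list counts the stefin genes singly. The MHC class II medians were -1.27 and -0.80, the dendritic cell medians -1.50 and -0.87 and those of stem and progenitor genes -1.15 and -0.46. Each comparison applied its own filter, so the members of a list can differ, as for specific granules with 13 and 11 genes compared. As the comparisons share their naïve library and each has 1 library a side, no test of a difference between them was made.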

How the data were processed

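RNA-seq libraries of sorted BM cells, 1 per condition, were made with a strand-specific SureSelect kit and sequenced on a HiSeq instrument. The authors deposited 1 FPKM value per gene symbol and library. The tools listed in the submitters' processing notes, without roles, are Cufflinks 2.1.1 and TopHat2 2.0.8, and the build listed is mm9. Which options and annotation were used the sources used here do not give. Samples were grouped by their labels. From FPKM, differences of log2(FPKM + 1) were computed over genes that reached an FPKM of 1 in 1 or both libraries. Left out were the short RNA genes (Mir, Snor, Scarna) and those at 0 in 1 library. A difference of at least 2-fold was counted. As no condition had replicates, no test was made.

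Named were the 15 largest differences each way among genes that reached an FPKM of 10 and up to 4 members of each of 50 gene lists. Members and lists were chosen with earlier results of these data known, and other list members were named after their values were seen. Some list members are not reported here. Depth was estimated from the steps between low FPKM values and GENCODE transcript lengths (22751 of 23234 symbols with a length, older symbols matched through RefSeq synonyms). Counting intervals were taken at 95%, with the longest annotated transcript of each gene. Promoters are from RefSeq tables of GRCm38.p6. The procedure was tested on simulated data of 10361 genes with counting error only, and genes with a mean FPKM of at least 10 were scored. All 50 genes of each true ratio of 4, 3, 0.333 and 0.25 were called and 0 of 5828 unchanged genes. Calls among weaker genes, which make up much of the real count, were not scored. The alternatives were a pseudocount of 0.1, an FPKM of at least 5 or no filter, TPM, median-of-ratios scaling, zeros kept, short RNA genes kept and a 4-fold threshold. Python 3.11.15, numpy 2.4.6, pandas 2.3.3, scipy 1.17.1 and matplotlib 3.10.9 were used.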

Additional observations from a re-analysis of the deposited data

Results flagged for a closer look

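The specific granule genes Ltf, Ngp and Camp, and the median of their list, stood on opposite sides of the naïve library in the 2 gates. These 3 genes were picked for that pattern. The difference from naïve monocytes was 2.098 in Ym1+Ly6Chi and -1.28 in Ym1-Ly6Chi monocytes for lactoferrin (Ltf), 1.76 and -1.28 for Ngp, and 1.35 and -1.48 for Camp. The list median was 1.30 over 13 genes and -0.94 over 11. Other members did not show the pattern, with Lcn2 above the naïve library in both gates, at 4.51 and 2.36, and Cd177 below it in both, at -1.64 and -3.91. Each gate is 1 library and both share the naïve library, so the difference between the gates was not tested. The summed neutrophil markers, of which Ltf, Ngp and Camp are 3, moved with it, at 619 FPKM in Ym1+Ly6Chi, 194 in naïve and 84.1 in Ym1-Ly6Chi monocytes, and their part in the pattern was not tested.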

How the results depend on the processing

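With 1 library per condition no replicate could be left out. No paired analysis was possible because each group holds 1 library and no result comes from a test. The count of genes at least 2-fold lower, 452 as reported, was 789 with a pseudocount of 0.1 and 682 with TPM, and that of higher genes, 251 as reported, was 375 and 291. Weakly expressed genes enter the count when the pseudocount is smaller against the values. A threshold of 4-fold left 62 higher and 60 lower. The other alternatives gave 186 to 300 higher and 306 to 466 lower genes. Of the calls as reported 35.7% were higher, against 29.9% with TPM and 44.4% with median-of-ratios scaling, which moved the median of all genes by -0.05 and 0.09. With median-of-ratios scaling the medians of MHC class I, Toll-like receptor, chemokine receptor, NADPH oxidase and cytosolic ribosomal protein genes, all near 0, changed sign. So did the M1, M2 and chemokine receptor medians with an FPKM of at least 5, to -0.34, -0.73 and 0.11, the M1 median with TPM, to -0.06, and the M1 and eosinophil medians without a filter, to -0.03 and -0.08. The lower medians of MHC class II and dendritic cell genes went from -1.27 to -2.70 and from -1.50 to -2.57 with a pseudocount of 0.1. Of the genes named by rule, none past 2-fold changed direction. Depth limits weak genes most, since an FPKM of 1 for a 2 kb transcript rests on about 19.6 fragments in the Ym1+ library.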

Other observations

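The genes given here are single genes from the next ranks of difference, chosen after their values were seen. Gpr84, a receptor for medium-chain fatty acids, had an FPKM of 18.9 in Ym1+Ly6Chi, 1.24 in naïve and 7.14 in Ym1-Ly6Chi monocytes. Hsd11b1, which regenerates active glucocorticoid, was at 87.9, 15 and 57.6, and Dgat2, which makes triglycerides, at 17.8, 2.67 and 10.2. Osteopontin (Spp1) was at 17.7, 4 and 16.9. The platelet and microglial ADP receptor P2ry12 was at 10.2, 1.28 and 6.71. In all 5 genes the Ym1- library was above the naïve library and below the Ym1+ library.

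Lower genes at these ranks included Cyp27a1, a sterol hydroxylase, at 4.02, 38.9 and 5.96 FPKM in the same order, and the nuclear receptor Rxra, a partner of many lipid sensors, at 3.92, 17.2 and 5.32. Txnip, which restrains glucose uptake and thioredoxin, was at 80.4, 252 and 72.8. Creatine kinase B (Ckb) was at 3.15, 21 and 14.3, and Mfge8, which helps take up dying cells, at 2.47, 12.6 and 5.48. For Cyp27a1, Rxra and Txnip both libraries after LPS stood close together, whereas Ckb in the Ym1- library stayed nearer to the naïve value.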
